A study of Mus musculus with 20 samples.

Results

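Endothelial genes were examined in tumours grown in the caecum of C57BL/6J mice, 20 in number, each on its own array. The group was a list of 40 gene symbols typical of blood and lymphatic vessel cells, each read from the single-symbol probe set with the highest mean. Of these 40 genes, 38 had such a probe set and 35 were bright enough to be tested, among 17097 genes with a probe set and 15556 tested. Ackr1 and Roc1 had no single-symbol probe set and were skipped. Tal1, Esm1 and Sele were measured but dim, with values of at most 3.87 on the log2 scale, and were not tested.

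The tumours grew from 5 mouse tumour organoid (MTO) lines in the caecum of syngeneic mice. MTO68 and MTO93 are parental lines of genotype LAKTP, MTO140 is an LAKTP line of type LiM, MTO54 is a parental LAKP line and MTO207 is a parental LAKT line, with letters the labels do not spell out. Each line gave 2 tumours from control mice (label Con) and 2 from mice given 10 mg of galunisertib (label LY) 2 times per day by gavage from day 11 until sacrifice at 5 weeks. Galunisertib inhibits the kinase of the TGF-beta type I receptor. Tumours of MTO68, MTO93, MTO54 and MTO207 were started from 1 mm3 pieces of subcutaneous tumours placed on the caecum tip. MTO140 was injected below the caecal serosa as spheroids grown for 3 days. Each line had its own array strip, and lines cannot be told apart from strips. For MTO140 neither can the line and the way it was implanted. LAKP and LAKT are each represented by 1 line, so genotype and line cannot be told apart for them.

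Endothelial cells line blood and lymphatic vessels. They grow and branch in response to VEGF ligands acting on the receptors encoded by Kdr, Flt1 and Flt4, and they mature and stay quiet through the angiopoietin receptor TEK and its partner TIE1. They also carry their own receptor for BMP9 and TGF-beta family ligands, built from ALK1 (Acvrl1) and the co-receptor endoglin (Eng). Their identity is kept by transcription factors of the ETS family, such as ERG, and of the SOXF family.

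Promoter sequences are shown for 4 members because each holds the ETS-type motif AGGAAG 2 times. Emcn, Eng and Tie1 were lower in both treated than in both control tumours of MTO140 and of MTO54, and Flt1 was so in MTO54. Of all 35 tested members 26 were so in MTO140 and 20 in MTO54, against 12.6% and 16.4% of all genes. In MTO207 Tie1 and Flt1 were higher in both treated than in both control tumours. A link between the motif and the treatment was not tested. The windows are 300 bases around the annotated start, from RefSeq on build GRCm38.p6, written 5' to 3' on the gene's strand, with AGGAAG or its reverse complement CTTCCT in capitals. Emcn lies at chr3:137340828-137341127 on the + strand, Eng at chr2:32646345-32646644 on the + strand, Tie1 at chr4:118489800-118490099 on the - strand and Flt1 at chr5:147725962-147726261 on the - strand.
Emcn: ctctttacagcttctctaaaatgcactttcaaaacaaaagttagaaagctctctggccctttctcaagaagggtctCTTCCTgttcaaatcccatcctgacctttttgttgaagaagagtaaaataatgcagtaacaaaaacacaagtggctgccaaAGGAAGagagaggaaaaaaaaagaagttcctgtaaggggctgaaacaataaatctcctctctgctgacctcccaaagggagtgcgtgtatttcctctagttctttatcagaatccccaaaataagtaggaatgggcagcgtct
Eng: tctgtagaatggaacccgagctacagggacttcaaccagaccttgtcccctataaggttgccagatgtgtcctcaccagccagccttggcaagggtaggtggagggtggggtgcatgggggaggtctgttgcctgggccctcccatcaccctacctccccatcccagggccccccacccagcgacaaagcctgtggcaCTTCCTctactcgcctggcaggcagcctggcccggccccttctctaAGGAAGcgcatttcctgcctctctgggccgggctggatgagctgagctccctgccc
Tie1: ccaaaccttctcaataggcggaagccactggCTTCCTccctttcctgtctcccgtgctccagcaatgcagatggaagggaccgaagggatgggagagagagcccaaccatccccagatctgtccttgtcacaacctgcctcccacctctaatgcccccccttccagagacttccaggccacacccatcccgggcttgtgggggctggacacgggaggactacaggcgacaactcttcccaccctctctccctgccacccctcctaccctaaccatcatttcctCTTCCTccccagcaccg
Flt1: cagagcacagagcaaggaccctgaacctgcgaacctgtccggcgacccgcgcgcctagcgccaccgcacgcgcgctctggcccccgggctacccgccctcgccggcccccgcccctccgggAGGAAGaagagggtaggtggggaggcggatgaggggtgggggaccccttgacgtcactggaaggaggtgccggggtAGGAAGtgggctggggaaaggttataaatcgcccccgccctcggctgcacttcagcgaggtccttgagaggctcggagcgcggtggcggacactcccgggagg
Promoters of 21 members were matched, 26 windows in all. AGGAAG on either strand was in 14 of these 26 windows and in 35.4% of all 32851 RefSeq windows. The shorter GGAAG, which AGGAAG contains, was in 20 of 26 and in 71.4% of all. The SOX-type motif AACAAT was in 3 of 26, those of Emcn, Erg and Tek, and in 10.7% of all. A match describes letters only.

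The arrays had medians between 4.93 and 5.12 and SDs between 1.46 and 1.83 on the log2 scale. The 2 tumours of a group are biological replicates per the design text. The array of MTO68 control replicate 2 stood apart from the other arrays of its line, with an SD of 1.47 against 1.76 to 1.82. In MTO207 the control arrays had SDs of 1.46 and 1.46 and the treated arrays of 1.57 and 1.55. Array spread and treatment cannot be told apart in that line. Of the brighter vessel markers, Pecam1 lay between 6.33 and 7.87, Kdr between 6.04 and 7.88 and Emcn between 5.65 and 7.42, above the filter of 4.16 in every tumour. Others were dimmer. Cd34, Cldn5, Tek and Clec14a had means of 4.70, 4.67, 4.60 and 4.40, below every array median. Plvap, Erg and Angpt2, with means of 4.835, 4.84 and 4.86, were below every array median too. Apln was dimmer still, with a mean of 3.98, and exceeded the filter on 4 arrays. Tal1, Esm1 and Sele exceeded the filter on no array. In whole fragments, fewer endothelial cells and less RNA per cell cannot be told apart.

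A score per tumour was made as the mean over the 35 tested members of each value centred on that gene's mean. It has no test. Control tumours lay between -0.25 and 0.42 and treated tumours between -0.32 and 0.03. The mean was 0.09 ± 0.21 (SD, n = 10) in control and -0.09 ± 0.12 (SD, n = 10) in treated tumours. In MTO140 the control tumours scored 0.38 and 0.20 and the treated tumours -0.02 and -0.16. In MTO54 the control tumours scored 0.42 and 0.19 and the treated tumours -0.10 and -0.06. In MTO93 both treated tumours, at -0.32 and -0.24, lay below both control tumours. Treated and control tumours overlapped in MTO68 and in MTO207. The range within a group was widest in the MTO68 controls, which scored 0.12 and -0.25. The score difference in MTO68 was 0.09, but -0.10 without control replicate 2 and 0.27 without control replicate 1.

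**Figure D1:**
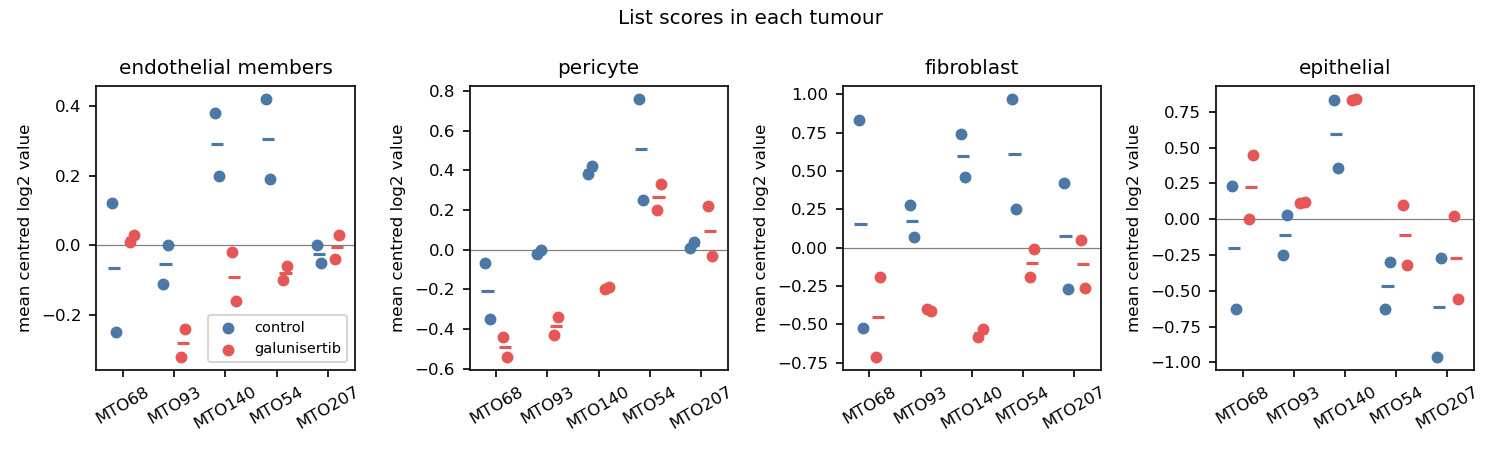
List scores in each of 20 tumours, as the mean log2 value of a list's genes after centring each gene on its mean over all tumours; points are tumours, short lines are means of 2 tumours, and the vertical scales differ. The endothelial control tumours of MTO140 and MTO54 score between 0.19 and 0.42 and their treated tumours between -0.16 and -0.02; fibroblast and pericyte scores were lower and epithelial scores higher in treated tumours of most lines.

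Across the 5 lines, with the line as a block, endothelial genes were mostly lower after galunisertib. The treated minus control difference was negative for 31 of 35 members, against 49.7% of all genes tested, and its median was -0.18 on the log2 scale against 0.00 for all genes. Limma with Benjamini-Hochberg adjustment over all genes called 0 of 35 members at an adjusted p under 0.05, and it called 0% of all genes. At an unadjusted p under 0.05, 14 members were lower, against 3.66% of all genes, and 0 were higher, against 4.29%. The mean was lower in each of the 5 lines for 11 members, against 3.28% of all genes, and higher in each line for 0 members, against 3.75%. Without a filter on dim genes 33 of the 38 measured members were lower, with a median of -0.17.

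By line, the median difference was -0.36 in MTO140 and -0.30 in MTO54, with 33 of 35 members lower in each. It was -0.16 in MTO93 with 30 lower, -0.13 in MTO68 with 21 lower and -0.05 in MTO207 with 19 lower. With 2 tumours a group these medians depend on single tumours: omitting 1 tumour of the line gave -0.46 to -0.23 in MTO140 (without treated replicate 1 and 2), -0.40 to -0.19 in MTO54 (without control replicate 2 and 1) and -0.23 to -0.10 in MTO93 (without control replicate 1 and 2). In MTO68 it gave -0.20 without control replicate 2, -0.052 without control replicate 1 and -0.025 without treated replicate 1, and in MTO207 -0.034 to 0.0072. Both treated tumours lay below both control tumours for 26 members in MTO140 (12.6% of all genes), 20 in MTO54 (16.4%), 15 in MTO93 (14.4%), 12 in MTO68 (23.2%) and 8 in MTO207 (31.6%). The opposite, both treated above both control, was found for 0 members in MTO140 (8.32% of all genes), 0 in MTO54 (17.8%), 1 in MTO93 (18.1%), 3 in MTO68 (31.2%) and 12 in MTO207 (26.3%). In MTO207 members were thus found on both sides, as were all genes, and array spread differed with treatment there. Both treated tumours were below both controls in at least 3 lines for 20 members, against 5.34% of all genes.

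Within single lines limma called 0 of 35 members in each line. Of all genes it called 2.01% in MTO68, 0.00643% in MTO140 and 0% in each of MTO93, MTO54 and MTO207. At an unadjusted p under 0.05, 10 members were lower in MTO54 (1.8% of all genes) and 8 in MTO140 (2.78%). There were 4 such members in MTO68 (13.1%), 1 in MTO93 (0.649%) and 1 in MTO207 (4.27%). Higher members at that threshold numbered 4 in MTO68 (19.8% of all genes) and 1 in MTO207 (3.27%). Whether the treatment difference itself varied between lines was tested with a moderated F test. It called 0 of 35 members and 0.0643% of all genes, and 6 members had an unadjusted p under 0.05 against 8.65% of all genes.

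**Figure D2:**
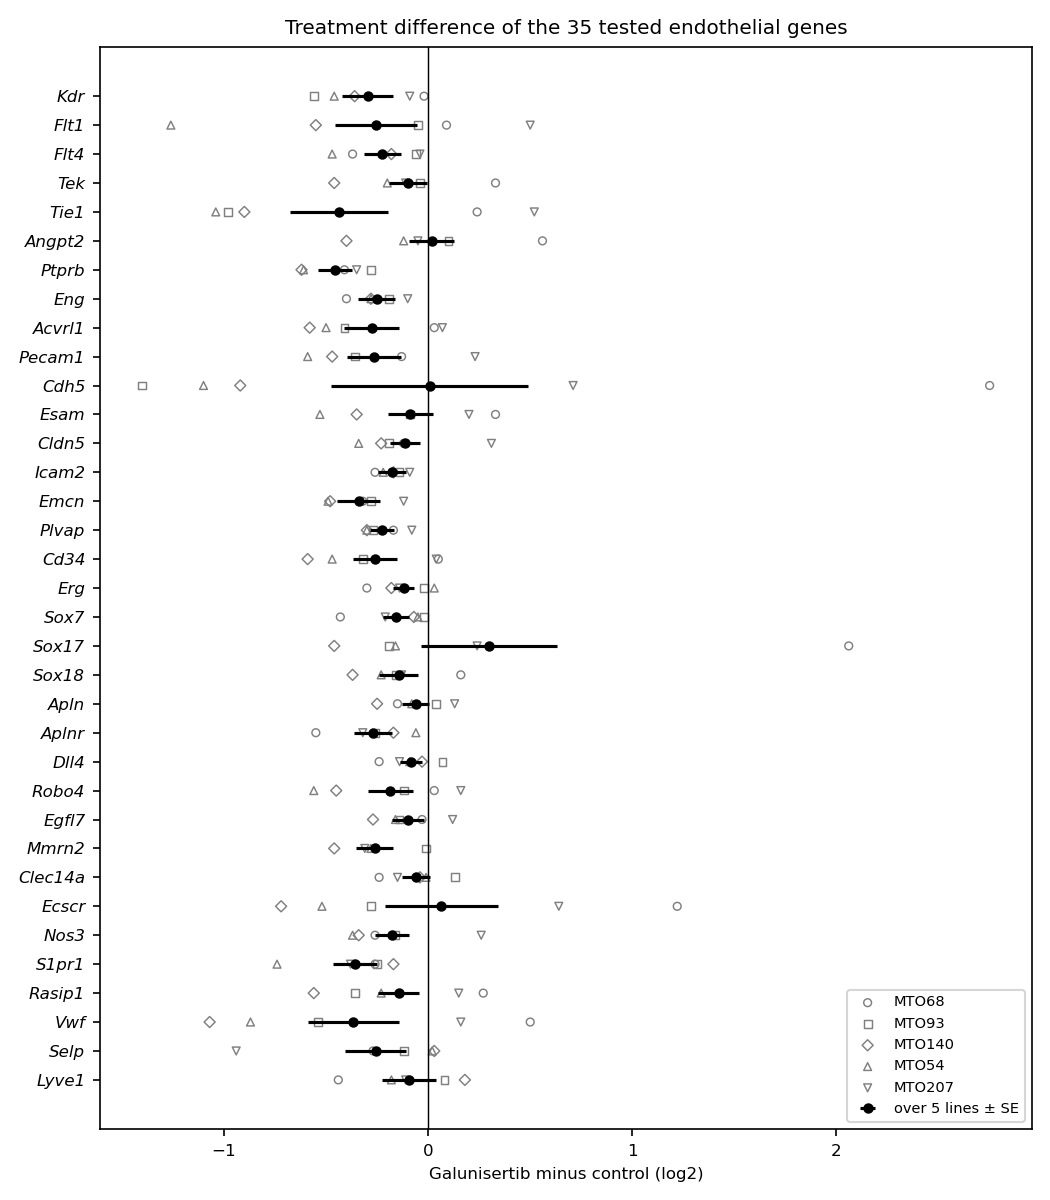
Treated minus control difference on the log2 scale for each of the 35 tested members, in the order of the role groups; black points with bars are the difference over 5 lines ± SE and open symbols the 5 lines. Of the black points 31 lie left of 0, and the open symbols spread widest for Cdh5, from -1.40 in MTO93 to 2.75 in MTO68.

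Among the VEGF receptors all 3 members were lower over 5 lines, by 0.22 to 0.30, and 0 passed. Kdr encodes VEGFR2, the main signalling receptor for VEGF-A. Its control tumours had a lowest, median and highest value of 6.15, 6.74 and 7.88 and its treated tumours of 6.04, 6.47 and 6.91, so the groups overlapped. The difference was -0.30 (SE 0.12, limma adjusted p = 0.563). Flt1 encodes VEGFR1, which binds VEGF-A tightly and, in its soluble form, traps it. Flt1 read 9.09 and 9.24 in MTO54 control tumours and 7.83 and 7.98 in MTO54 treated tumours, a gap wider than the spread within either pair. In MTO207 the treated tumours, at 8.03 and 8.07, lay above the controls at 7.59 and 7.52. The Flt1 difference was -1.26 (SE 0.35) in MTO54 and -0.25 (SE 0.20, limma adjusted p = 0.722) over 5 lines. The other probe sets of Flt1 gave -0.39 and -0.20 over 5 lines. Flt4, the lymphatic receptor VEGFR3 that sprouting vessels also carry, differed by -0.22 and was lower in 5 of 5 lines.

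In the angiopoietin and TIE system the steadiest member was Ptprb, the vascular phosphatase VE-PTP, which restrains TEK signalling and junction opening. Control and treated tumours read 6.52 and 6.37 against 6.14 and 5.92 in MTO68, and 6.83 and 6.86 against 6.54 and 6.59 in MTO93. In MTO140 they read 7.12 and 7.02 against 6.40 and 6.50, and in MTO54 7.56 and 7.26 against 6.86 and 6.74. In MTO207 they read 7.08 and 6.85 against 6.84 and 6.39. Both treated tumours were thus below both controls in each of the 5 lines, which held for 1 of 35 members and for 0.122% of all genes. The Ptprb difference was -0.45 (SE 0.08, unadjusted p = 3.3e-05, limma adjusted p = 0.0862), and it did not pass. Over 40 alternative settings its adjusted p ran from 0.00517 to 0.87, and it passed in 7 of them. A second probe set of Ptprb gave -0.40.

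Tie1, the orphan partner of TEK, differed by -0.44 (SE 0.24, limma adjusted p = 0.672). Its values were 7.40 and 6.55 against 6.24 and 5.90 in MTO140, control before treated, and 7.56 and 6.49 against 6.07 and 5.90 in MTO54. In MTO93 they were 5.45 and 5.94 against 4.66 and 4.77. The order turned in MTO207, at 5.61 and 5.62 against 6.02 and 6.24. Tek itself, the angiopoietin receptor TIE2, differed by -0.10 and Angpt2, the ligand released by activated endothelium, by 0.02.

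Both genes of the endothelial BMP and TGF-beta receptor complex were lower over 5 lines, and neither passed. Eng read 6.39 and 6.24 in MTO68 controls against 5.75 and 6.07 in treated tumours, 6.34 and 6.22 against 5.97 and 6.04 in MTO140, and 6.80 and 6.78 against 6.52 and 6.50 in MTO54. Treated and control tumours overlapped in MTO93 and MTO207. The Eng difference was -0.25 (SE 0.09, limma adjusted p = 0.482), lower in 5 of 5 lines. A second, dimmer Eng probe set gave -0.18 over 5 lines. It differed by -0.58 in MTO68 and -0.14 in MTO207, but by only -0.07 in MTO93, -0.04 in MTO140 and -0.09 in MTO54. Acvrl1 differed by -0.28 (SE 0.14, limma adjusted p = 0.644). It was lower in MTO140 (-0.58), MTO54 (-0.50) and MTO93 (-0.41) and near 0 in MTO207 (0.07). In MTO68 its difference was 0.03, from -0.49 against control replicate 1 alone to 0.56 against control replicate 2 alone. A second, dimmer Acvrl1 probe set gave -0.16 over 5 lines and did not share this line pattern. It differed by -0.16 in MTO140, -0.05 in MTO54, -0.11 in MTO93, -0.16 in MTO207 and -0.315 in MTO68.

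Of the 8 junction and surface adhesion members, 7 were lower over 5 lines and 0 passed, the exception being Cdh5 at 0.01 (-0.047 with quantile normalization). Emcn encodes endomucin, a sialomucin of capillary and venous endothelium. Its control tumours had a lowest, median and highest value of 6.11, 6.61 and 7.42 and its treated tumours of 5.65, 6.30 and 6.67. The Emcn difference was -0.34 (SE 0.11, limma adjusted p = 0.344), and it was lower in 5 of 5 lines. Plvap, which forms the diaphragms of fenestrated capillaries, lay between 4.57 and 5.30 in control and between 4.47 and 4.92 in treated tumours, and differed by -0.22 (SE 0.06, limma adjusted p = 0.245). Pecam1, the platelet endothelial adhesion molecule CD31, differed by -0.26 (SE 0.13, limma adjusted p = 0.646), with 7.87 and 7.67 against 7.36 and 7.26 in MTO140 and 6.95 and 7.04 against 7.24 and 7.20 in MTO207. Icam2 differed by -0.18 and Cd34 by -0.26, while Cldn5 and Esam of the tight junction differed by -0.11 and -0.09.

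Cdh5, which encodes VE-cadherin, the adherens junction protein of endothelium, stood high in 3 of the 4 MTO68 tumours. There the control tumours read 9.85 and 6.07 and the treated tumours 10.96 and 10.46. In the other 4 lines Cdh5 lay between 5.73 and 8.89. The 3 high MTO68 values were above every tumour of the other lines, and the low value was that of the control array that stood apart. A second Cdh5 probe set read 6.51 and 4.37 in control and 7.74 and 7.46 in treated tumours of MTO68, with the same order. The treated minus control difference was 2.75 (SE 0.79) in MTO68 and 0.71 in MTO207, but -0.92 in MTO140, -1.10 in MTO54 and -1.40 in MTO93. The difference between lines had the smallest p of the members (moderated F 4.87, unadjusted p = 0.0111, limma adjusted p = 0.563) and did not pass. Against MTO68 control replicate 1 alone the MTO68 difference was 0.86. On the second Cdh5 probe set the differences were 2.165 in MTO68, 0.17 in MTO207, -0.60 in MTO140, -0.64 in MTO54 and -0.15 in MTO93. Treated and control tumours of MTO93 overlapped on it.

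Sox17, a SOXF factor of arterial endothelium that is also used by embryonic endoderm, and Ecscr, a surface protein of endothelial cells, shared the high MTO68 values. Sox17 read 7.23 and 5.49 in MTO68 controls and 9.74 and 7.11 in treated tumours, and lay between 5.02 and 6.08 in the other lines. Ecscr read 9.55 and 8.13 in MTO68 controls and 10.24 and 9.89 in treated tumours, and lay between 6.53 and 8.48 elsewhere. For each of the 3 genes the same 3 MTO68 tumours were above every tumour of the other lines. Kdr, Emcn and Plvap did not share this: their MTO68 means of 6.41, 5.97 and 4.61 lay within or below the range of the other lines. Cdh5, Sox17 and Ecscr were picked out after their values were seen. Without them the score difference in MTO68 was -0.10 in place of 0.09, and with all 35 members but without control replicate 2 it was also -0.10. Without the 3 genes and that tumour it was -0.19. Their differences over 5 lines were 0.01, 0.30 and 0.07, and without line MTO68 they were -0.68, -0.14 and -0.22.

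**Figure D3:**
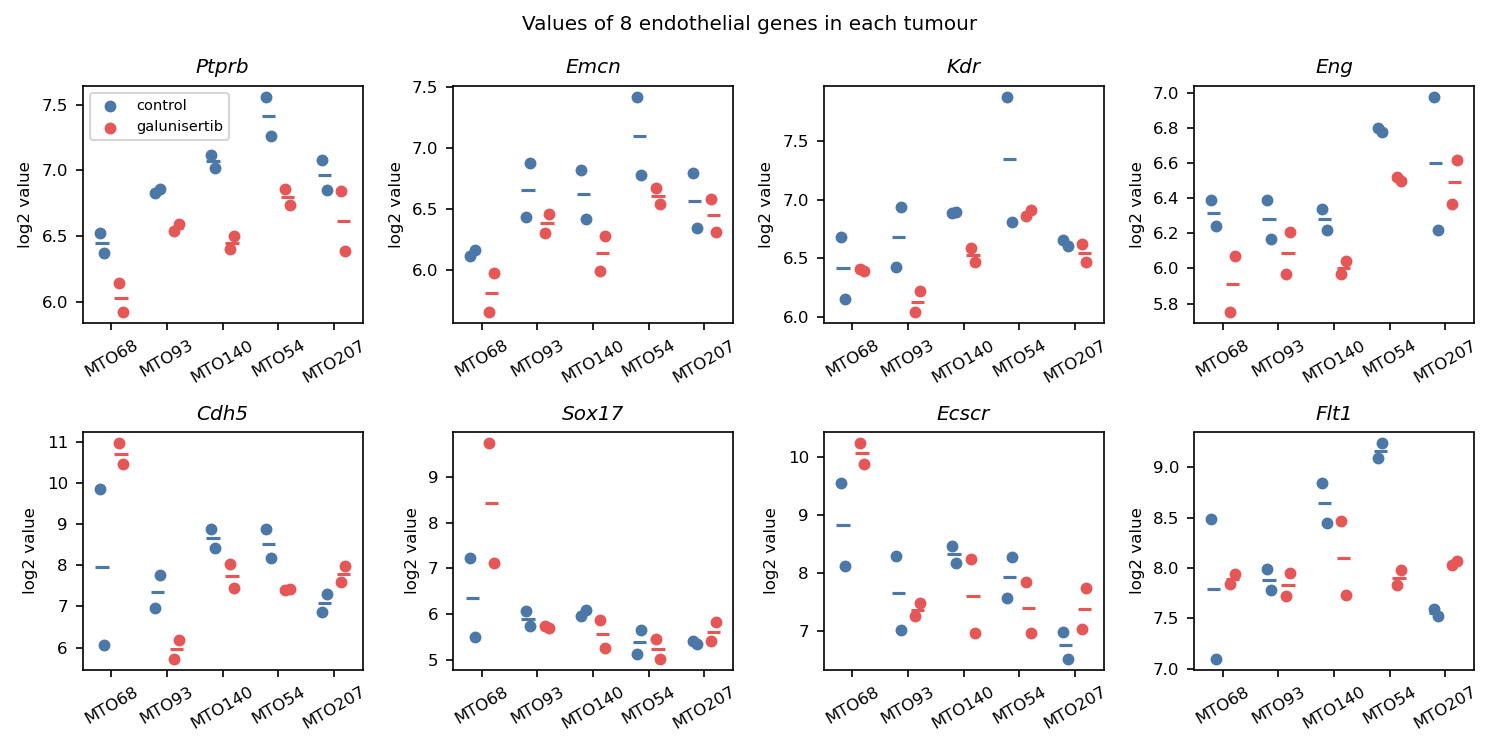
Deposited log2 values of 8 members in each of 20 tumours by line and treatment; points are tumours, short lines are means of 2 tumours, and each panel has its own scale. Ptprb shows both treated tumours below both controls in each line, while Cdh5, Sox17 and Ecscr are high in 3 of the 4 MTO68 tumours.

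The other transcription factors had small differences on the probe sets used. Erg, Sox7 and Sox18 differed by -0.12, -0.16 and -0.15, and 0 passed. A second, dimmer Erg probe set gave -0.26 over 5 lines, with -0.40 in MTO140 and -0.43 in MTO54. The first Erg probe set gave -0.18 and 0.03 in these lines. Sox7 lay between 5.00 and 5.62 in control and between 4.75 and 5.49 in treated tumours, with its lowest values, 4.76 and 4.75, in the treated tumours of MTO68.

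The 5 tested sprouting and guidance members were all lower over 5 lines, by 0.06 to 0.27, and 0 passed. Aplnr, the receptor of the vessel peptide apelin, read 6.02 and 6.36 against 5.51 and 5.77 in MTO68, control before treated, and 6.54 and 6.69 against 6.16 and 6.43 in MTO207. Its difference was -0.27 (SE 0.09, limma adjusted p = 0.432), lower in 5 of 5 lines, with -0.17 in MTO140 and -0.06 in MTO54. A second, dimmer Aplnr probe set gave -0.40 over 5 lines. It differed by -0.88 in MTO140 and -0.86 in MTO54, but by 0.09 in MTO68. Robo4, a guidance receptor that stabilises vessels, read 6.12 and 5.65 against 5.34 and 5.53 in MTO140. Robo4 differed by -0.18 over 5 lines. Egfl7, a secreted protein of vessel tubes, differed by -0.10, Dll4, the Notch ligand of tip cells, by -0.08 and Apln by -0.06. A second, dimmer Dll4 probe set gave -0.19 over 5 lines, with -0.48 in MTO140.

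Of the vessel matrix group, Mmrn2, which binds the endothelial lectin encoded by Clec14a, lay between 5.51 and 6.30 in control and between 5.34 and 5.98 in treated tumours. Mmrn2 differed by -0.26 (SE 0.09, limma adjusted p = 0.447) and Clec14a by -0.06. Among the genes of tone and flow signalling, S1pr1, the sphingosine 1-phosphate receptor that steadies junctions, read 6.05 and 5.75 against 5.00 and 5.31 in MTO54. Its difference over 5 lines was -0.36 (SE 0.11, limma adjusted p = 0.315), lower in 5 of 5 lines. Nos3, the endothelial nitric oxide synthase, differed by -0.18, with both treated tumours below both controls in 4 lines and above them in MTO207. Rasip1, which shapes the vessel lumen, differed by -0.14.

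Genes of leukocyte capture and haemostasis followed no single pattern. Vwf, the von Willebrand factor, read 7.25 and 6.87 against 6.10 and 5.88 in MTO140, control before treated, but 6.84 and 5.49 against 7.39 and 5.93 in MTO68. The Vwf difference in MTO68 was -0.18 against control replicate 1 alone and 1.17 against control replicate 2 alone. Vwf differed by -0.37 (SE 0.22, limma adjusted p = 0.69). Selp, the P-selectin that captures leukocytes, lay at 6.88 and 6.49 in MTO207 controls against 5.87 and 5.62 in treated tumours, and between 5.02 and 6.32 in all other tumours. Its difference in MTO207 was -0.94 (SE 0.31, limma adjusted p = 0.646). A second, dimmer Selp probe set gave -0.27 in MTO207 and -0.01 over 5 lines, where the first gave -0.26. The second read 4.63 and 4.25 in MTO207 controls, but also 4.62 in treated replicate 2 of MTO68 and of MTO140. Lyve1, a hyaluronan receptor of lymphatic vessels that some macrophages also carry, differed by -0.09 and 2 of 5 lines were higher. A second Lyve1 probe set, with a mean of 3.55, exceeded the filter on no array and gave -0.004 over 5 lines.

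**Figure D4:**
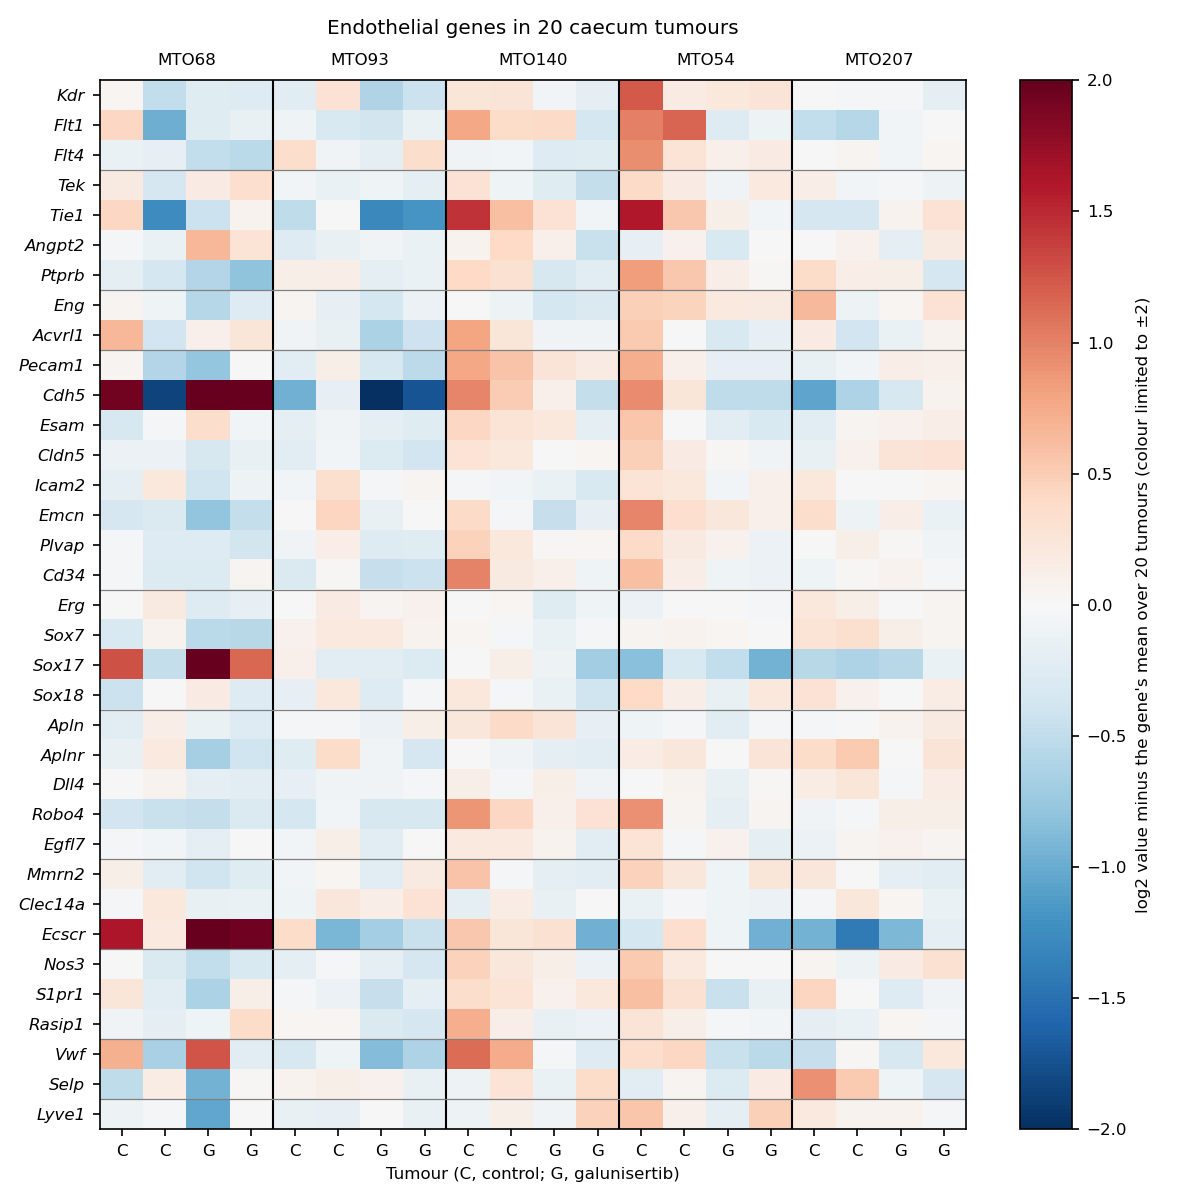
Heat map of the 35 tested members (rows, grouped by role) in 20 tumours (columns), coloured by the log2 value minus the gene's mean over the 20 tumours; red is higher, blue is lower, and colours stop at 2 in either direction. Most members are reddest in control tumours of MTO140 and MTO54, and Cdh5, Sox17 and Ecscr are red in MTO68.

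Levels were then compared between lines, over all 4 tumours of each. The moderated F test called 18 of 35 members (51.4%), against 55.4% of all genes, so the share was near the background. At an unadjusted p under 0.05 the count was also 18, against 64.6% of all genes. The 18 were Ptprb, Plvap, Emcn, Aplnr, Eng, Flt4, Sox7, Cd34, Kdr, Nos3, Pecam1, Tie1, Robo4, Cldn5, Flt1, Sox17, Ecscr and Cdh5. Ptprb was highest in MTO54 at 7.11 ± 0.38 and lowest in MTO68 at 6.24 ± 0.26 (SD, n = 4), with MTO93, MTO140 and MTO207 within 1 SD of one another at 6.70, 6.76 and 6.79 (limma adjusted p = 0.0036). Emcn was likewise highest in MTO54, at 6.85 ± 0.39, and lowest in MTO68, at 5.97 ± 0.23 (SD, n = 4). Robo4 was highest in MTO140, at 5.66 ± 0.33, and lowest in MTO68, at 4.84 ± 0.08 (SD, n = 4). Ecscr ran the other way, at 9.45 ± 0.92 in MTO68 and 7.08 ± 0.51 in MTO207 (SD, n = 4, limma adjusted p = 0.00312). Without line MTO68 the test called 11 of 35 members, against 53.4% of all genes, and with the hybridization control level as a covariate 8, against 14.7%. In control tumours alone limma called 0 of 35 members and 2.8% of all genes, and 13 members had an unadjusted p under 0.05, against 36.4% of all genes.

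Related vessel genes outside the list were read from 4 further lists, and limma called 0 of their genes over 5 lines. At an unadjusted p under 0.05, lower genes numbered 4 of 14, 1 of 15, 5 of 17 and 1 of 4 in these lists, in the order given here. The share of all genes was 3.66%. There was 1 higher gene, in the list of 15, against 4.29% of all genes. Of 14 VEGF and angiopoietin ligands and co-receptors 13 were lower, with a median of -0.14. Fgf2, a fibroblast growth factor that acts on endothelium, differed by -0.79 (SE 0.14, limma adjusted p = 0.0862) and Vegfc, the ligand of VEGFR3, by -0.25 (SE 0.09, limma adjusted p = 0.495). Vegfa, the ligand of Kdr and Flt1, differed by -1.46 in MTO54, -0.39 in MTO140, -0.24 in MTO93, 0.53 in MTO68 and 0.56 in MTO207, and by -0.20 over 5 lines. Of 15 endothelial Notch, BMP and flow genes 9 were lower, with a median of -0.09, among them Hey1, a Notch target, by 0.23, while Klf4, a flow-responsive factor that epithelium also makes, was higher by 0.33. Of 17 further endothelial surface and signalling genes 13 were lower, with a median of -0.14. Myct1 differed by -0.19 and Mcam, an adhesion molecule of endothelium and pericytes, by -0.29. Of 4 other lymphatic genes 3 were lower. Pdpn, which fibroblasts make as well, differed by -0.64 and Mmrn1 by -0.15.

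Markers of other cell types also differed. All 7 tested fibroblast genes were lower over 5 lines, with a median of -0.62. The mean level of the 8 measured ranged from 6.77 to 8.05 in control and from 6.59 to 7.26 in treated tumours, and Pdgfra was not above the filter on any array. The fibroblast score differed by -1.15 in MTO140, -0.71 in MTO54, -0.61 in MTO68, -0.58 in MTO93 and -0.18 in MTO207. Against MTO68 control replicate 1 alone it differed by -1.28 and against replicate 2 alone by 0.07. All 5 tested smooth muscle genes were lower over 5 lines, with a median of -0.64. Their mean level ranged from 6.31 to 7.97 in control and from 5.71 to 7.92 in treated tumours. The smooth muscle score differed by -1.53 in MTO140, -0.99 in MTO93, -0.63 in MTO68 and -0.24 in MTO207, but by 0.53 in MTO54, where 0 of the 5 genes were lower. All 6 pericyte genes were lower, with a median of -0.31. Kcnj8, a potassium channel gene of pericytes, was the 1 gene called in MTO140 (-1.26, SE 0.16, limma adjusted p = 0.0238). Kcnj8 was dim, with a mean of 4.19, and exceeded the filter of 4.16 on 7 arrays. With median centring, or without the eBayes trend, limma called 0 genes in MTO140. The mean level of the pericyte genes ranged from 5.54 to 6.65 in control and from 5.35 to 6.22 in treated tumours. All 8 epithelial genes were higher, with a median of 0.25, and their mean level ranged from 9.20 to 11.00 in control and from 9.60 to 11.01 in treated tumours. With the fibroblast score as a covariate the endothelial median was -0.06 and 22 of 35 members were lower, and with the epithelial score it was -0.19 and 32. Hypoxia genes followed no one direction. All 8 were lower in MTO54, with a median of -1.13, while 6 were lower in MTO93 (-0.25), 5 in MTO140 (-0.05) and 1 in MTO207 (0.28). In MTO68 all 8 were higher, with a median of 0.59, but 4 of 8 were lower against control replicate 1 alone, with a median of -0.21. The part of these markers in the endothelial differences was not tested. Platelets also carry Vwf and Selp, and the score of platelet genes differed by -0.08 over 5 lines, that of macrophage genes by -0.05 and that of leukocyte genes by 0.05. Each average held lines of both signs. In MTO68, MTO93, MTO140, MTO54 and MTO207, leukocyte genes differed by 0.43, 0.36, -0.29, -0.32 and 0.09. Macrophage genes differed by 0.15, -0.10, -0.29, -0.16 and 0.18, and platelet genes by -0.33, 0.22, -0.08, -0.30 and 0.06. The leukocyte value in MTO68 was -0.21 against control replicate 1 alone and 1.08 against replicate 2 alone.

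Without the array of MTO68 control replicate 2, limma called 1 of 35 members over 5 lines, Ptprb, and 43 genes in all. Without MTO54 control replicate 2 it also called 1 member, again Ptprb, and 20 genes. Without the MTO68 array 34 of 35 members were lower, with a median of -0.21. The median in MTO68 was then -0.20 with 25 lower. Without MTO68 control replicate 1 instead, 12 of 35 members and 53.5% of all genes were called in MTO68, and 4 members and 18% of all genes for the difference between lines.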

How the data were processed

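Whole tumour fragments of 20 tumours were profiled on 1-colour arrays. The authors deposited log2 values per probe set. The submitters' processing notes name RMA and affy (versions not given in the sources used here). Such values are background-corrected, normalized by quantiles and summarised over probes, which narrows differences of dim genes. Of 45141 probe sets, 28898 had a single symbol, 551 several, 15588 none and 104 were controls. Each gene took its single-symbol probe set with the highest mean. Genes were tested where 2 or more arrays exceeded 4.16 (the 25th percentile over the table). The number of arrays limits the precision.

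Limma 3.58.1 (R 4.3.3, eBayes with a trend) gave every test. The difference over 5 lines had a term for the line, and other comparisons used a model of 10 group means. P-values are two-sided and were adjusted by Benjamini-Hochberg over the tested genes, with a threshold of 0.05. The fit was tested on simulated data. Replicate numbers only name tumours in accession order. Members, role groups and lists were chosen with earlier results of these data known, so no score or list has a p. Named genes were, per role group, the 2 brightest, the 5 of smallest p in each of 3 tests, those called, Eng and Acvrl1, and in each further list the genes called or, with none, the 2 of smallest p. Others are named after their values were seen. Of 13 members with over 1 probe set past the filter, 13 had probe sets of one sign over 5 lines. Plots used matplotlib 3.10.9. Alternatives were other filters, probe sets, scalings, covariates and omissions; the spread of an array as a covariate and the score without Cdh5, Sox17 and Ecscr were chosen after seeing the data.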

Additional observations from a re-analysis of the deposited data

Results flagged for a closer look

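In 72 sets of 10 tumours (the score and 35 members, control and treated apart), 11 had a highest or lowest tumour set off from the others by more than Dixon's 95% limit. Chance passes that limit in about 1 of 20 sets drawn from one population, but each set here mixes 5 lines whose levels differ, so that rate need not hold. MTO68 treated tumours gave 4 of them. Replicate 1 had the highest Sox17 (9.74), the highest Vwf (7.39) and the lowest Lyve1 (5.41) of the treated tumours, and replicate 2 the highest Rasip1 (5.52). MTO68 control replicate 1 had the highest Sox17 of the control tumours (7.23). MTO54 control replicate 1 had the highest Kdr (7.88), Flt4 (5.88) and Lyve1 (7.01). In MTO140, control replicate 1 had the highest Rasip1 (5.88) and control replicate 2 the highest Angpt2 (5.26) of the control tumours, and treated replicate 1 the highest Flt1 of the treated tumours (8.47).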

How the results depend on the processing

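The score difference over 5 lines stayed negative under the 34 settings tried, from -0.24 to -0.12. These settings were filters, probe sets, scalings and omissions. No covariate was applied to the score, so its range does not cover the fibroblast score as covariate. The endothelial median over 5 lines stayed between -0.25 and -0.057 under 41 settings, and the one that moved it beyond 1 SD was the fibroblast score as covariate (-0.057). That covariate also gave -0.0054 in MTO68 and -0.18 in MTO140. With the second probe set per gene the MTO68 median was 0.008, and with the stricter filter it was -0.46 in MTO54 and 0.074 in MTO207. In MTO140 single omissions gave -0.46 to -0.23.

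The count of members called over 5 lines was 0, and it was 1 with quantile normalization (57 genes called in all), 2 with array weights (116 genes), 1 with the hybridization control level (9 genes), 3 with the fibroblast score (2569 genes) and 4 with the spread of the array, chosen after seeing the data, as covariate (165 genes), and 0 to 1 over single omissions. In MTO68 it was 0, then 1 with the second probe set (394 genes), 8 with the fibroblast score as covariate (7710 genes) and 0 to 12 over single omissions. For the difference between lines single omissions gave 0 to 4. For levels between lines the 18 became 8 with the hybridization control level, 11 without line MTO68 and 0 in control tumours only. The cause was not tested.

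Differences over 5 lines changed sign for 15 of 35 members under at least 1 setting. With the fibroblast score as covariate Flt1 was 0.22, Tek 0.16, Tie1 0.27, Acvrl1 0.18, Pecam1 0.087, Robo4 0.051, Nos3 0.035, Rasip1 0.058 and Lyve1 0.013. Angpt2 was -0.024 with array weights, -0.016 with the hybridization control level, -0.017 with the spread covariate, -0.12 without line MTO68, -0.0043 without line MTO93 and -0.049 to 0.085 over single omissions. Cdh5 was -0.047 with quantile normalization, -0.55 with array weights, -0.27 with the hybridization control level, -0.56 with the epithelial score, -0.53 with the spread covariate, -0.68 without line MTO68, -0.17 without line MTO207 and -0.46 to 0.17 over single omissions. Sox17 was -0.019 with array weights, -0.14 without line MTO68 and -0.014 to 0.40 over single omissions. Ecscr was -0.068 with the hybridization control level, -0.082 with the epithelial score, -0.18 with the spread covariate, -0.22 without line MTO68, -0.078 without line MTO207 and -0.12 to 0.21 over single omissions. Over all 40 settings Cdh5 ran from -0.68 to 0.997, Sox17 from -0.14 to 0.489 and Ecscr from -0.22 to 0.499. Esam was 0.023 without line MTO54, Apln 0.012 with the epithelial score, and Lyve1 -0.15 to 0.0058 over single omissions. No paired analysis was possible because the labels give no replicate numbers that tie tumours of different groups.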
